A study of Mus musculus with 4 samples.

Results

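The subject here is 10 genes of neutrophil granules and cytosol, followed by the stage of neutrophil maturation at which each is made: Elane and Mpo for primary granules, Ngp, Ltf, Camp, Lcn2 and Mmp8 for secondary granules, Mmp9 for tertiary granules, and S100a8 and S100a9 for the cytosol. They were taken by symbol, each matched 1 row in both deposited tables, and they are 10 of 53801 genes in each table. RNA came from blood mononuclear cells of wild-type mice in 2 tumour models, the B16 melanoma and the CT-26 colon carcinoma. In each model, 1 library held cells that bound tumour-reactive multimers (labelled CTRL, circulating tumor-reactive lymphocytes) and 1 held the cells labelled residual, so there were 4 libraries and 1 per group. All 4, residual included, are labelled WT, CD8+ primary cells and, as treatment, Multimer-binding, and no strain, age or number of animals is given in the sources used here.

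Neutrophils fill their granules in sequence as they mature in bone marrow. Primary granule genes such as those of myeloperoxidase and elastase are transcribed in promyelocytes, secondary granule genes in myelocytes and metamyelocytes, and tertiary granule genes in band cells, while the mRNA of S100a8 and S100a9 stays abundant in mature cells. Circulating neutrophils therefore carry little primary granule mRNA, and secondary granule mRNA in blood marks younger cells.

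The libraries held 37166063 to 74879891 reads in genes, and haemoglobin genes took 42.0% of the B16 residual reads, 10.8% of the CT-26 residual reads, and 1.28% and 0.629% of the B16 and CT-26 CTRL reads. The residual label went against the data: Cd8b1, the CD8 beta chain, had 61 reads in the B16 residual and 33732 in the B16 CTRL library, and 1256 and 118153 in CT-26. T cell receptor reads were present in all 4 libraries, with 3019 and 12518 Trac reads in the residual libraries of B16 and CT-26. The libraries labelled residual are therefore called by that label only. Genes that mark mature neutrophils, such as Csf3r, the receptor for granulocyte colony-stimulating factor, had 17510 and 83725 reads there. In bulk RNA, fewer neutrophils and less of these mRNAs per neutrophil cannot be told apart.

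The promoters of the secondary granule members are shown because these genes divided in the B16 CTRL library, where Ngp, Ltf and Camp had 0 reads and Lcn2 and Mmp8 had 331 and 382. The sequences are from RefSeq on GRCm38.p6 and run from 250 bases before to 50 bases after the annotated start, 5′ to 3′ on the gene's strand. Capitals mark the letters TTNNGNAA on either strand, a core of the motif bound by C/EBP proteins, which direct granulocyte gene expression. The windows are chr9:110419558-110419857 on the plus strand for Ngp, chr9:111019042-111019341 on the plus strand for Ltf, chr9:109849407-109849706 on the minus strand for Camp, chr2:32387690-32387989 on the minus strand for Lcn2 and chr9:7558179-7558478 on the plus strand for Mmp8. The RefSeq starts differ from the GENCODE gene positions given further on. By GENCODE, the Camp gene starts at 109849617 on its strand, and the Lcn2 window lies inside the gene, which starts at 32388252. The motif counts hold for these windows only.
Ngp: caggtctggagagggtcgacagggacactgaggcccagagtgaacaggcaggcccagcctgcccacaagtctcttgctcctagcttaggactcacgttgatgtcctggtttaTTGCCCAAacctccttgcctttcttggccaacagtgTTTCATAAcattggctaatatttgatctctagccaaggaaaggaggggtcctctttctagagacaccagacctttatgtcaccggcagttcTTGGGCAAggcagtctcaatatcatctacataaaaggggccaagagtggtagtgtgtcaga
Ltf: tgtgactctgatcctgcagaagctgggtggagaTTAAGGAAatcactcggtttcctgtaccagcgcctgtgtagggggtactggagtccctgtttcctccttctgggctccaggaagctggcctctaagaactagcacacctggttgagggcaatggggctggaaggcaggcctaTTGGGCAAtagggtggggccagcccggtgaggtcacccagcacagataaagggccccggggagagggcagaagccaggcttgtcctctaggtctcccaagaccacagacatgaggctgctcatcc
Camp: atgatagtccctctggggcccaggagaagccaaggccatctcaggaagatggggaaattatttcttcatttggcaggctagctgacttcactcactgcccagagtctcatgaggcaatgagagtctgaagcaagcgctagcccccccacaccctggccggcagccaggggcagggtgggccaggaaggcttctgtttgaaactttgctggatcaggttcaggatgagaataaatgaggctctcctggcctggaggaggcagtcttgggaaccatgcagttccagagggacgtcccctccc
Lcn2: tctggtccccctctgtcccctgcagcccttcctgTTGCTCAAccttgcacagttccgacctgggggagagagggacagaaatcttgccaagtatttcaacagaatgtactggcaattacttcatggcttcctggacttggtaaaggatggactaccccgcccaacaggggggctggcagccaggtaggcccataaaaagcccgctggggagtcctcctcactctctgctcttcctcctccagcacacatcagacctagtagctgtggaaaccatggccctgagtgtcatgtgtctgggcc
Mmp8: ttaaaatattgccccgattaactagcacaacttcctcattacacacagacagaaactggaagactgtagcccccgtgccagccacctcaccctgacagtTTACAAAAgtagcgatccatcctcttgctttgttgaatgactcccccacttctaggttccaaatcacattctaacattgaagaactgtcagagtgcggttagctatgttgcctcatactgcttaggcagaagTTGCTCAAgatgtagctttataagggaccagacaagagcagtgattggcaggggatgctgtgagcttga
The motif was found 3 times for Ngp, 2 times for Ltf and Mmp8, 1 time for Lcn2 and 0 times for Camp, so the genes with and without B16 CTRL reads were not separated by it. It stood in 6 of the 9 member promoters in the reference table and in 40.7% of all 32851 promoters of that length. The letters GAGGAAGT, a site of PU.1, an Ets factor of myeloid cells, stood on either strand in 4 of the 9 (Elane, Mpo, Mmp8 and S100a8) and in 3.20% of all promoters. TGTGGT, the core of the RUNX motif, stood on either strand in 2 (Ltf and S100a9) and in 16.8% of all. TATAAA on the gene's strand stood in 2 (S100a8 and S100a9) and in 8.32% of all. These are matches of letters in a window and say nothing of binding.

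Levels are given first as RPKM (reads scaled by merged exon length in kilobases and by the library's total reads in genes), computed from the deposited raw counts, since only a value per length can be set side by side between genes. In the libraries labelled residual, the cytosolic genes stood highest and the primary granule genes lowest. S100a9, whose protein pairs with S100a8 to form calprotectin, a calcium- and zinc-binding complex, was at 7766 RPKM in B16 and 8229 in CT-26. S100a8 was at 5463 and 3644 RPKM. Ngp, which encodes neutrophilic granule protein, led the granule genes at 181 RPKM in B16 and 385 in CT-26.
In the B16 residual library, Mmp9 (68.7 RPKM), Lcn2 (67.8), Camp (61.0), Mmp8 (55.3) and Ltf (20.7) followed Ngp. In the CT-26 residual library the order was Mmp9 (175 RPKM), Camp (172), Ltf (91.9), Mmp8 (78.4) and Lcn2 (61.6). The exact 95% counting intervals of Mmp9 and Lcn2 overlapped in B16, and those of Mmp9 and Camp in CT-26, so the order of these neighbours was not resolved. Ltf ranked last of the secondary granule members in B16 and stood behind Ngp and Camp only in CT-26.
Elane was at 0.780 RPKM in B16 and 0.800 in CT-26 residual cells. Mpo was at 0.224 and 1.36 RPKM. The primary granule members were thus below every secondary granule member in both libraries labelled residual.
In the B16 CTRL library the order was S100a9 (303 RPKM), S100a8 (94.3), Mmp9 (14.9), Mmp8 (4.24), Lcn2 (3.40) and Mpo (0.0157), with the other 4 at 0. In the CT-26 CTRL library it was S100a9 (87.7 RPKM), S100a8 (37.8), Mmp9 (3.11), Ngp (2.98), Camp (1.43), Ltf (1.34), Mmp8 (1.10), Lcn2 (0.820) and Mpo (0.0195), with Elane at 0. The counting intervals of Mmp9 and Ngp overlapped there, as did those of each neighbouring pair from Camp to Lcn2.

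**Figure D1:**
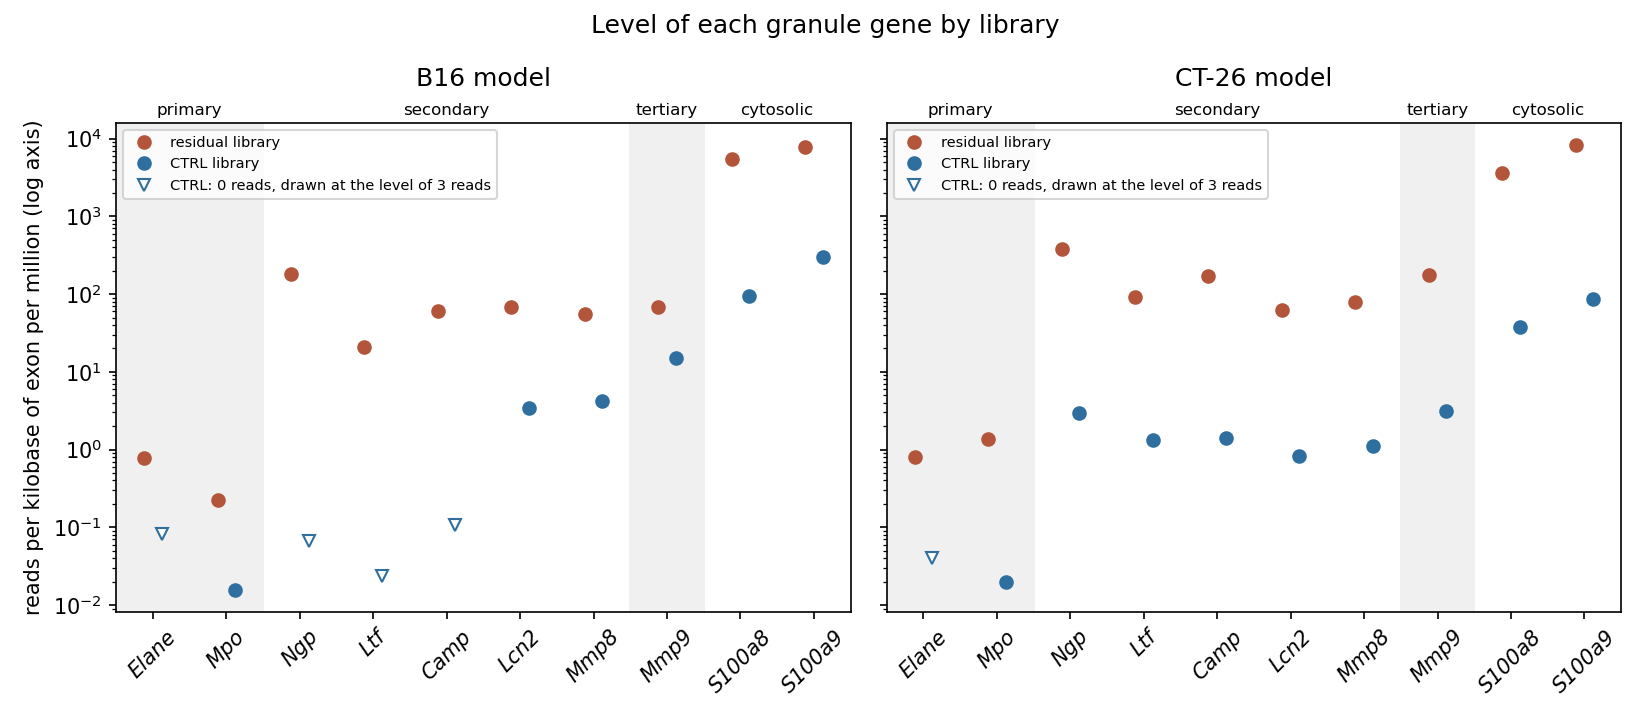
Level of each member in RPKM (log axis) in the B16 and CT-26 models, with members ordered by granule stage, filled points for each library and open triangles for CTRL libraries with 0 reads, drawn at 3 reads. S100a8 and S100a9 are highest and Elane and Mpo lowest in both residual libraries, and the B16 CTRL library has triangles for Elane, Ngp, Ltf and Camp.

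The primary granule members were low in all 4 libraries. Elane, the gene of neutrophil elastase, a serine protease, lies at chr10:79886247-79888215 on GRCm38 and had 30 reads in the B16 residual, 0 in the B16 CTRL, 40 in the CT-26 residual and 0 in the CT-26 CTRL library. Mpo, the gene of myeloperoxidase, which makes hypochlorous acid, lies at chr11:87793581-87804413 and had 30, 2, 236 and 5 reads in the same order. Both residual libraries were above both CTRL libraries for each gene.
Against a floor of 3 reads per library, Elane was at least 17.1-fold lower in CTRL than in residual cells of B16 and at least 22.5-fold lower in CT-26, on the scale of the deposited normalized counts. The log2 ratio of Mpo, CTRL over residual with a pseudocount of 1, was -3.99 in B16 (exact 95% interval -7.79 to -2.70) and -5.99 in CT-26 (-7.95 to -5.07). These intervals, like all intervals here, span counting error alone and treat each read as independent. PCR copies carrying no molecular identifier are not independent molecules, so the intervals are too narrow even for that error. With 1 library per group, these ratios have no replicate check.
The other primary granule genes of the list were also low. Prtn3, the gene of proteinase 3, lies 3072 bases from Elane and had 323, 0, 495 and 5 reads (B16 residual and CTRL, then CT-26 residual and CTRL). Ctsg, the gene of cathepsin G, had 27, 0, 50 and 0 reads. Prss57, a serine protease of the same granules, had 52, 0, 73 and 0, and Bpi, which binds bacterial endotoxin, had 7, 0, 0 and 0. None of these 6 genes reached 10 CPM (reads scaled to the library's total) in any library, so none could be called by the rule of size used here.

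Of the secondary granule members, Ngp, Ltf and Camp had no read in the B16 CTRL library, and Lcn2 and Mmp8 had reads in all 4 libraries. Ngp lies at chr9:110419747-110423012 and had 8646 reads in the B16 residual, 0 in the B16 CTRL, 23917 in the CT-26 residual and 273 in the CT-26 CTRL library. Ltf, the gene of lactoferrin, which binds iron, lies at chr9:111019271-111042767 and had 2787, 0, 16109 and 347 reads in the same order. Camp, the gene of the cathelicidin antimicrobial peptide, lies at chr9:109847379-109849617 and had 1806, 0, 6626 and 81.
All 3 genes thus had reads in the other 3 libraries. Lcn2, the gene of lipocalin 2, which binds bacterial siderophores, lies at chr2:32384633-32388252 and had 6952, 331, 8208 and 161 reads. Mmp8, the gene of neutrophil collagenase, lies at chr9:7558456-7568485 and had 5235, 382, 9665 and 200. Both kept reads in the B16 CTRL library, and more than in the CT-26 CTRL library, which was deeper.
In B16, Ngp was at least 4916-fold lower in CTRL than in residual cells, Ltf at least 1585-fold and Camp at least 1027-fold, each against the floor of 3 reads. Lcn2 was 35.8-fold lower, a log2 ratio of -5.16 (-5.33 to -5.00), and Mmp8 was 23.4-fold lower, a log2 ratio of -4.54 (-4.70 to -4.40). The bound of each of the 3 genes at 0 thus exceeded the fold of Lcn2 and of Mmp8 in the same pair of libraries. In CT-26, the log2 ratios were -7.20 for Ngp, -6.28 for Ltf, -7.08 for Camp, -6.41 for Lcn2 and -6.34 for Mmp8, which are 148-, 78.2-, 138-, 85.9- and 81.4-fold lower.
Ngp, Ltf and Camp lie on chromosome 9 with 570129 bases between Camp and Ngp and 596258 between Ngp and Ltf. Of the 28 other protein-coding genes between Camp and Ltf, 10 reached 10 CPM in the B16 residual library, and all 10 had reads in the B16 CTRL library, the lowest 410. Their median log2 ratio was 0.20. A search over all genes found 3 with 0 reads in the B16 CTRL library and 200 or more in each other library, namely Ctsf, a lysosomal cysteine protease named after its values were seen, Ltf and Ngp. The same search found 0 such genes for each of the other 3 libraries.
Among the other secondary granule genes, Olfm4, which marks a subset of neutrophils, had 332, 0, 564 and 0 reads (B16 residual and CTRL, then CT-26 residual and CTRL). Cd177, a surface protein of neutrophils, had 2778, 631, 10981 and 225. Hp, the gene of haptoglobin, had 24450, 2653, 49970 and 1102. Pglyrp1, which binds bacterial peptidoglycan, was the least different at 7648, 3533, 7848 and 1643 reads, and Ptx3, a soluble pattern recognition protein, had 10, 1, 0 and 0.

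The tertiary granule member Mmp9, the gene of gelatinase B, lies at chr2:164940780-164955850 and had 9495 reads in the B16 residual, 1955 in the B16 CTRL, 31394 in the CT-26 residual and 823 in the CT-26 CTRL library. Of the 8 members above 10 CPM it differed least between the libraries in both models. Its log2 ratio was -3.05 in B16 (-3.12 to -2.98), which is 8.29-fold lower in CTRL, and -6.00 in CT-26, which is 64.3-fold lower.
The other tertiary granule genes also had more of their reads left in CTRL cells of B16 than of CT-26. Mmp25, a membrane-bound metalloproteinase, had 370, 292, 2058 and 36 reads (B16 residual and CTRL, then CT-26 residual and CTRL). Slc11a1, a metal ion transporter of phagocytes, had 3844, 2274, 8784 and 229. Itgam, the CD11b integrin chain, had 2905, 699, 5191 and 205, and Adam8, a membrane metalloproteinase, had 5339, 452, 10407 and 619. Another entry under the symbol Itgam, with fewer reads, was not used here. The log2 ratios of the 5 genes ran from -4.33 to -1.11 in B16 and from -6.54 to -4.82 in CT-26, and each was nearer 0 in B16.

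The cytosolic members were the most abundant. S100a8, at chr3:90668978-90670035, had 148130, 2432, 128530 and 1962 reads (B16 residual and CTRL, then CT-26 residual and CTRL). S100a9, at chr3:90692632-90695721 and 22596 bases from S100a8, had 158384, 5875, 218316 and 3427. Both residual libraries were far above both CTRL libraries for each gene.
The log2 ratio of S100a8 was -6.70 in B16 (-6.76 to -6.64) and -6.79 in CT-26, which are 104- and 110-fold lower in CTRL. That of S100a9 was -5.52 in B16 (-5.56 to -5.49) and -6.75 in CT-26, which are 46.0- and 107-fold lower. The pair therefore had nearly the same ratio in CT-26 and unequal ratios in B16. S100a8 had 935 reads per 1000 S100a9 reads in the B16 residual, 414 in the B16 CTRL, 589 in the CT-26 residual and 573 in the CT-26 CTRL library.

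**Figure D2:**
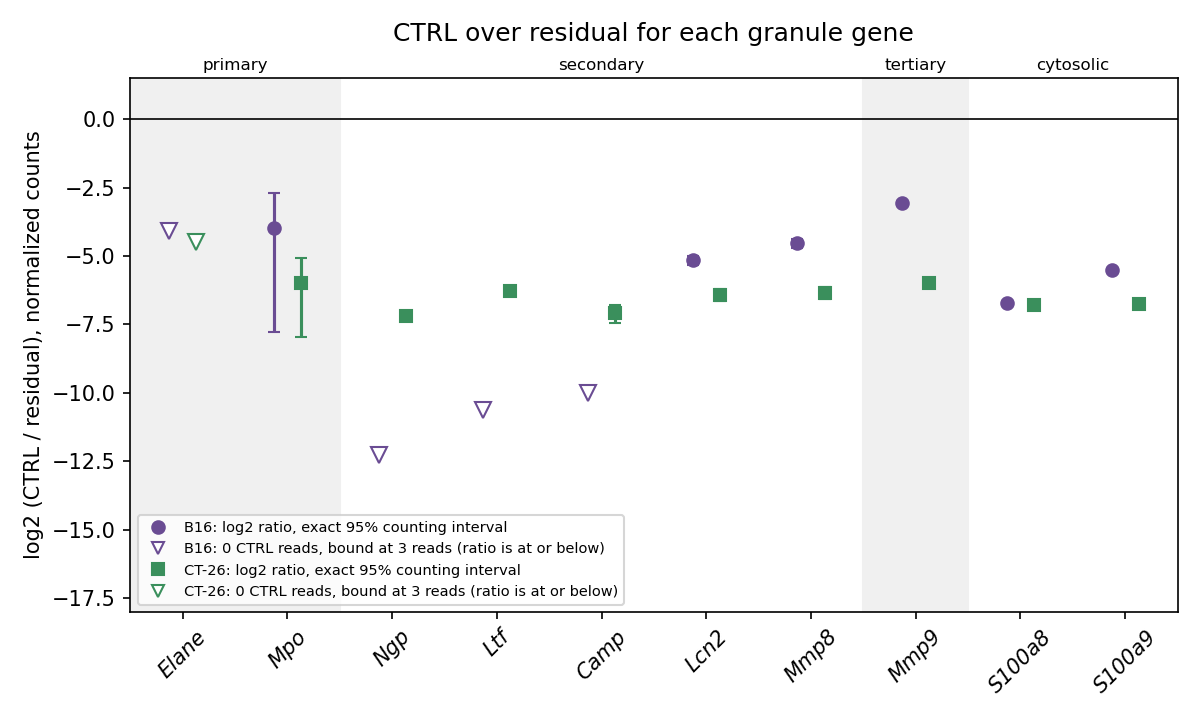
log2 ratio of deposited normalized counts, CTRL over residual, for each member in B16 (circles) and CT-26 (squares), with exact 95% counting intervals; open triangles are bounds at 3 reads for members with 0 CTRL reads, so the ratio is at or below them. The 9 CT-26 points lie between -7.20 and -5.99, while the B16 points run from -6.70 to -3.05 and the B16 bounds of Ngp, Ltf and Camp lie lower still.

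Genes were called by size: a log2 ratio of 1 or more either way, with 10 CPM or more in whichever library was higher. On that basis 8 of the 10 members were lower in CTRL in B16, beside 11.7% of the 9289 genes at that level, and 8 of 10 were lower in CT-26, beside 16.3% of 9514 genes. No member was called higher, beside 26.8% and 14.5% of those genes. The other 2, Elane and Mpo, were under the level in both models. Either library could meet the level. Ngp, Ltf, Camp and Lcn2 met it in B16 through the residual library alone, as did these genes and Mmp8 in CT-26. A gene that met it through CTRL alone could not be called lower. The counts and shares thus partly follow from the level and only describe size. The members' median log2 ratio was -5.43 in B16 and -6.38 in CT-26, beside medians of 0.47 and 0.23 over the genes at that level. With the B16 members at 0 reads set to their bounds, the B16 median was -5.34. Scaled to total reads, the B16 median was -4.80. By the fold in the authors' deposited table it was -2.91, and 5 members were then called lower in B16, beside 10.5% of genes at the level.
The members kept similar percentages in CT-26 CTRL cells and unequal ones in B16. As a percentage of the residual library's normalized count, the CTRL value of the 9 members with CT-26 CTRL reads ran from 0.677% for Ngp to 1.56% for Mmp9, a 2.30-fold range. In B16 it ran from 0.962% for S100a8 to 12.1% for Mmp9 over the 6 members with reads, a 12.5-fold range, and the other 4 were at 0. This spread between members cannot be tested with 1 library per group.
A fit over the raw counts of all 4 libraries with population and model as terms, by edgeR's quasi-likelihood test with Benjamini-Hochberg adjustment, called 0 of 18749 genes lower (0%) and 0 of the 10 members, with 1 residual degree of freedom. The members' unadjusted p ran from 0.000265 to 0.0221 in that edgeR fit, their adjusted p from 0.184 to 0.264, and 2998 genes of all had an unadjusted p under 0.05. All 10 members had a negative fitted log2 fold, from -9.60 for Ngp to -4.68 for Mmp9. DESeq2's Wald test on the same design called all 10 members lower, beside 8.38% of 18332 genes. Without the B16 CTRL library and the model term, edgeR called 8 members lower, beside 2.43% of 21728 genes.

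Member reads were then set against the S100a8 and S100a9 reads of the same library, which asks how granule mRNA stood relative to the cytosolic genes and needs no scaling between libraries. In CT-26, the CTRL and residual libraries differed by at most 1.69-fold in the 6 secondary and tertiary members. Ngp had 69.0 reads per 1000 S100a8 and S100a9 reads in the residual and 50.7 in the CTRL library, Ltf had 46.4 and 64.4, and Camp had 19.1 and 15.0. Lcn2 had 23.7 and 29.9, Mmp8 27.9 and 37.1, and Mmp9 90.5 and 153. The log2 difference, CTRL over residual, ran over these 6 genes from -0.44 for Ngp (-0.62 to -0.27) to 0.75 for Mmp9 (0.65 to 0.85). Other denominators moved these values. With Csf3r reads they were -1.23 for Ngp, -1.13 for Camp, -0.44 for Lcn2, -0.37 for Mmp8, -0.31 for Ltf and -0.03 for Mmp9. With the summed mature neutrophil list they ran from -2.29 for Ngp to -1.09 for Mmp9, and Mxd1 and Alpl made up 9369 and 4182 of that list's 20635 CT-26 CTRL reads.
In B16, relative to S100a8 and S100a9, Ngp, Ltf and Camp were lower in the CTRL library and Lcn2, Mmp8 and Mmp9 higher. Ngp had 28.2 reads per 1000 in the residual library, Ltf 9.09 and Camp 5.89, and each had 0 in the CTRL library, which allows up to 0.361 per 1000. Lcn2 had 22.7 in the residual and 39.8 in the CTRL library, and Mmp8 had 17.1 and 46.0. Mmp9 had 31.0 and 235, a log2 difference of 2.93. The direction of Lcn2 and Mmp8 depended on the denominator. With Csf3r reads the log2 differences were -1.72 for Lcn2, -1.10 for Mmp8 and 0.39 for Mmp9, and with the mature neutrophil list -1.01, -0.40 and 1.10. For Elane the limit of 0.361 was above its residual value of 0.0979, so a difference relative to S100a8 and S100a9 was not detectable at this depth. This too depended on the denominator. Per 1000 Csf3r reads Elane had 1.71 in the residual library, above the CTRL limit of 1.09. Per 1000 reads of the mature neutrophil list it had 0.180, below the limit of 0.187.

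**Figure D3:**
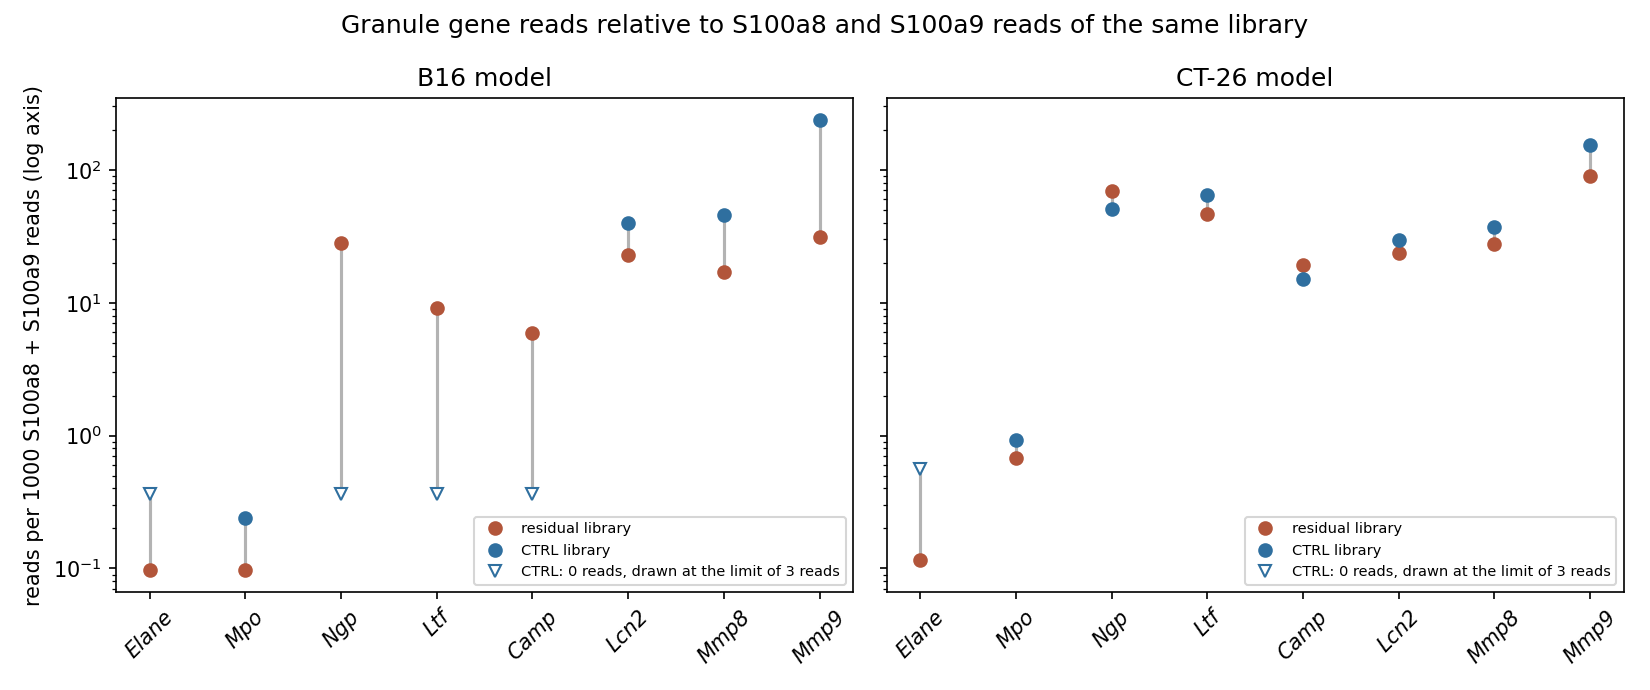
Reads of each granule member per 1000 S100a8 and S100a9 reads of the same library (log axis) in B16 and CT-26, with a grey line joining the residual and the CTRL library and open triangles at the limit of 3 reads where the CTRL library had 0. In CT-26 the points of each gene from Ngp to Mmp9 lie near each other, while in B16 Ngp, Ltf and Camp are at the limit of 0.361 in CTRL and Mmp9 lies at 31.0 and 235.

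The stages were also described by their shares of all member reads. In the B16 residual library 0.0176% of member reads came from primary, 7.45% from secondary, 2.78% from tertiary granule and 89.8% from cytosolic members. In the B16 CTRL library the shares were 0.0182%, 6.50%, 17.8% and 75.7%. In the CT-26 residual library they were 0.0623%, 14.6%, 7.09% and 78.3%, and in the CT-26 CTRL library 0.0687%, 14.6%, 11.3% and 74.0%. The secondary share was thus equal in the CT-26 libraries to the digits given, and the tertiary share was higher in CTRL than in residual cells of both models. Member reads made up 0.874% of the B16 and 0.872% of the CT-26 residual library, and 0.0295% and 0.00972% of the CTRL libraries.
Between the residual libraries, 7 of the 8 granule members had fewer reads per S100a8 and S100a9 read in B16 than in CT-26, by intervals that did not reach 0. The log2 difference, B16 over CT-26, was -2.80 for Mpo, -2.35 for Ltf, -1.70 for Camp, -1.55 for Mmp9, -1.29 for Ngp, -0.71 for Mmp8 and -0.06 for Lcn2 (-0.11 to -0.01). Elane had 0.0979 and 0.115 reads per 1000, a log2 difference of -0.24 (-0.97 to 0.48), which was not resolved. S100a8 and S100a9 themselves had 6.54 and 6.99 reads per 1000 outside haemoglobin genes in B16, against 2.84 and 4.82 in CT-26. Per read outside haemoglobin genes, 5 of the 8 members were lower in B16, and Lcn2 (0.76) and Mmp8 (0.12) were higher. The share of all genes lower per S100a8 and S100a9 read was not computed. Relative to Csf3r reads, however, only Mpo and Ltf were lower in B16, and Lcn2, Mmp8, Ngp, Camp, Mmp9 and Elane were higher. Elane was then at 1.84 (1.11 to 2.56), beside -0.72 for Mpo. Mpo and Ltf are thus the members whose lower value in B16 held under each of the 5 denominators tried.

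Genes with 0 CTRL reads were counted by list. In the B16 CTRL library, 5 of 6 primary and 4 of 10 secondary granule genes with residual reads had 0 reads, against 0 of 5 tertiary granule and 0 of 18 mature neutrophil genes. In the CT-26 CTRL library, 3 of 5 primary and 1 of 9 secondary granule genes were at 0, and again 0 of 5 and 0 of 18. Those 3 primary genes had 40 to 73 CT-26 residual reads, and the secondary gene, Olfm4, had 564. Of all genes with 10 or more but under 100 CT-26 residual reads, 10.6% had 0 CTRL reads. For 100 or more but under 1000 it was 1.67%. The primary granule genes had 7 to 323 reads in the B16 residual library, and over all genes 24.8% of those with 10 or more but under 100 such reads, and 0.978% of those with 100 or more but under 1000, had 0 CTRL reads. Of the primary granule genes at 0, Elane, Ctsg and Prss57 fell in the range with 24.8%, and Prtn3, with 323 reads, in the range with 0.978%. Bpi, with 7 reads, fell below both. Of all genes with 1 or more but under 10 such reads, 67.8% had 0 CTRL reads. Whether these zeros relate to stage was not tested. Ngp, Ltf and Camp were 3 of the 7 genes at 0, of 4162 genes with 1000 or more B16 residual reads, or 0.168%. By the rule of size, all 8 of the 10 secondary granule genes at the level were lower in CTRL in B16 and all 9 at the level in CT-26, as were all 4 and 5 tertiary granule genes at the level. Over all genes at the level, 11.7% were lower and 26.8% higher in B16, and 16.3% and 14.5% in CT-26. Each list count by this rule is to be read beside these shares. Of the mature neutrophil genes, all 17 at the level were lower in B16 and 17 of 18 in CT-26, with a median log2 ratio of -3.85 in B16 and -6.20 in CT-26, and 1 was higher in CT-26. Among them Retnlg, a secreted resistin-like protein, had 41840, 1277, 24337 and 357 reads (B16 residual and CTRL, then CT-26 residual and CTRL). Il1b, the gene of interleukin 1 beta, had 35932, 4418, 113591 and 2672.
Of 8 genes made early in the neutrophil line, 4 reached the level in each model, and 2 of these were lower in each, with 1 higher in B16 and 0 in CT-26. Chil3, a chitinase-like protein, had 16456, 7870, 5814 and 102 reads in the same order. Mgst1, a membrane glutathione transferase, had 6287, 1320, 10513 and 178. Gfi1, a repressor that granulocyte progenitors need, was not lower at 122, 446, 519 and 1548 reads. In bulk RNA the cells that these Gfi1 reads came from cannot be told.
Of 8 transcription factors of granulocytes, 5 reached the level in B16, with 2 lower and 1 higher, and 7 in CT-26, with 5 lower and 0 higher. Cebpd, a C/EBP factor, had 2780, 569, 12596 and 371 reads (B16 residual and CTRL, then CT-26 residual and CTRL). Spi1, the gene of PU.1, had 11235, 9462, 31019 and 1047, and Cebpb had 7973, 11088, 86465 and 7107. As normalized counts, the CTRL value of Cebpb was 81.5% of the residual value in B16 and 4.88% in CT-26.
Genes for partners of the granule proteins did not all share their direction. Of 5 genes for granule matrix and protease control, 3 were lower and 1 higher in B16, and all 5 were lower in CT-26. Slpi, a secreted inhibitor of neutrophil proteases, had 21091, 1218, 10005 and 234 reads in the same order. Serpinb1a, an inhibitor of neutrophil serine proteases, had 1220, 9994, 2557 and 458 reads and was higher in the B16 CTRL library (log2 ratio 2.26) and lower in the CT-26 one (-3.23). Srgn, the gene of the granule proteoglycan serglycin, which lymphocytes also make, had 31240, 21373, 40559 and 18882.
Of the 6 genes of the NADPH oxidase, which makes superoxide in phagocytes, 1 was lower in B16 and 5 in CT-26. Cybb, its catalytic subunit, had 11042, 15035, 23783 and 1145 reads, again in that order.

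**Figure D4:**
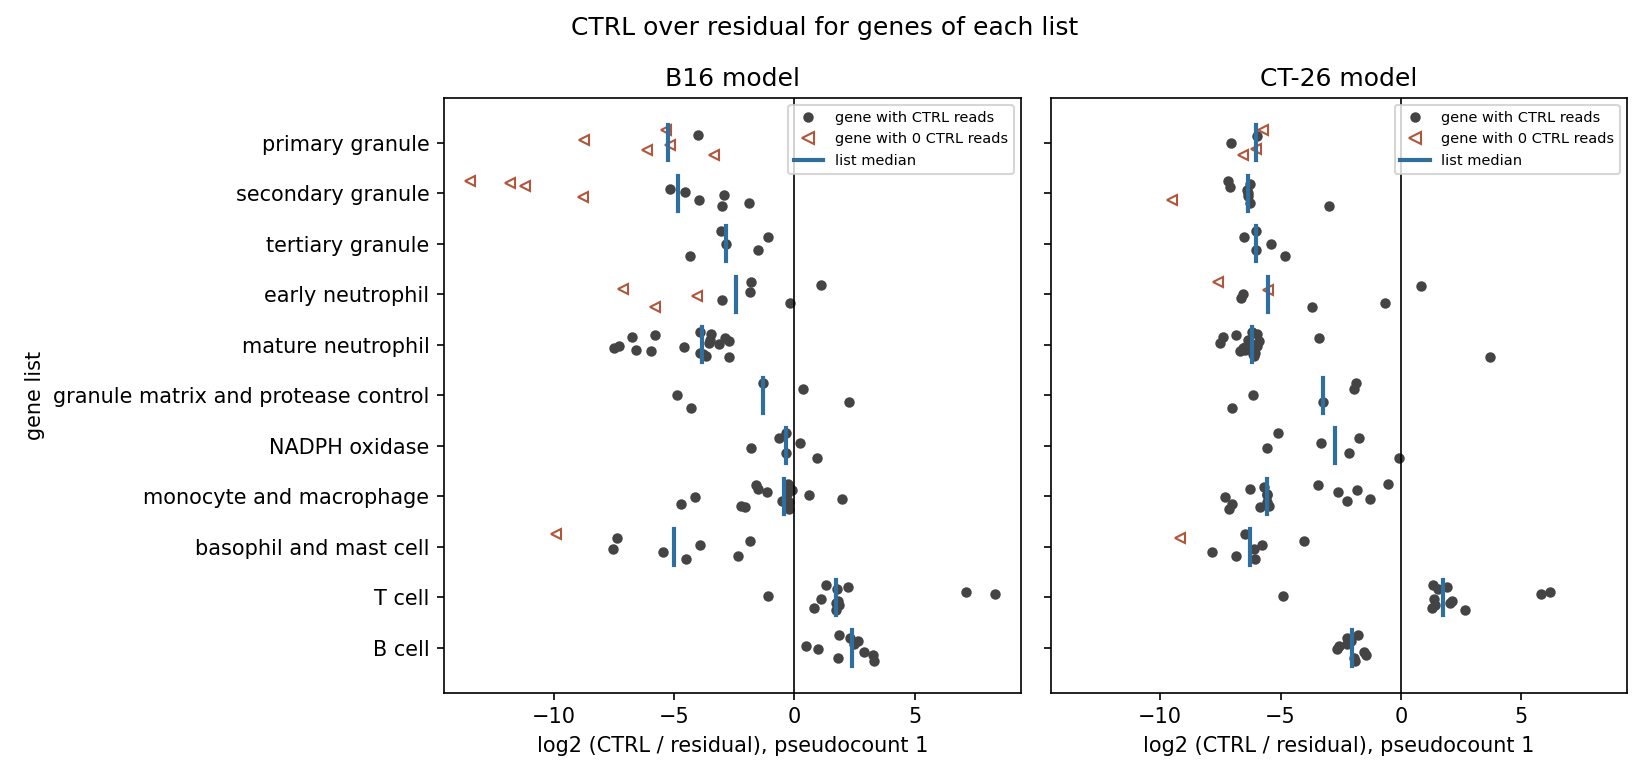
log2 ratio CTRL over residual for every gene with reads of 11 gene lists in B16 and CT-26; points are genes with CTRL reads, open triangles genes with 0 CTRL reads, and the bar is the list's median. The mature neutrophil medians are -3.85 and -6.20, and the monocyte and macrophage median is -0.41 in B16 and -5.55 in CT-26.

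RNA of other blood cells also differed between the libraries, and not always in the direction of the members. The counts by size below stand beside 11.7% of all genes at the level lower and 26.8% higher in B16. In CT-26 these shares were 16.3% and 14.5%. Of 16 monocyte and macrophage genes, 13 reached the level in each model, with 6 lower and 0 higher in B16 and 12 lower and 0 higher in CT-26, with medians of -0.41 and -5.55. Their summed level was 5679 CPM in the B16 residual and 3933 in the B16 CTRL library, and 10885 and 563 CPM in CT-26, and none of the 16 was at 0 in any library. Lyz2, the gene of lysozyme, which monocytes and neutrophils share, had 153782, 91849, 371246 and 8145 reads (B16 residual and CTRL, then CT-26 residual and CTRL). Ccr2, a chemokine receptor of monocytes, had 5551, 3143, 23623 and 3660. Cd14, a co-receptor for endotoxin, had 14027, 902, 33887 and 437. Summed over the list, the CTRL normalized count was 38.6% of the residual one in B16 and 4.53% in CT-26, and the part of this in the values of Mmp9, S100a9 and the other members with B16 CTRL reads was not tested.
B cell genes also parted, with 8 of 10 higher in B16 CTRL and all 10 lower in CT-26 CTRL. Of 12 T cell genes, 10 were higher and 1 lower in B16, and 11 higher and 1 lower in CT-26. All 10 erythroid genes at the level were lower in B16 and all 7 in CT-26, with list medians of -5.92 and -4.17, and all 8 and 4 platelet genes at the level were lower, with medians of -4.09 and -2.67. Of the NK cell genes at the level, 4 of 8 were lower in B16 and 5 of 7 in CT-26, with 0 higher. The part of these cells in the members' values was not tested.

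Finally, genes with a pattern most like the members' were sought among 9430 genes at 10 CPM in a library. The members, all genes of the other lists and predicted genes (Gm and Rik) were left out beforehand, so no list gene could be ranked. Likeness was the root mean square distance of log2(CPM + 1), centred over the 4 libraries, from the members' mean. Lrg1, a secreted leucine-rich glycoprotein of neutrophil granules, was the nearest at a distance of 0.188 log2 units, with 11099, 589, 30394 and 781 reads (B16 residual and CTRL, then CT-26 residual and CTRL). Lilr4b, an inhibitory receptor of myeloid cells, followed at 0.209 and Hcar2, a receptor for hydroxybutyrate, at 0.236. Il1rn, the interleukin 1 receptor antagonist, stood at 0.293 and Ier3, an early response gene, at 0.301. Asprv1, an aspartic protease, stood at 0.361 and AC110211.1 at 0.376. These genes had reads in the B16 CTRL library, as 6 of the 10 members did.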

How the data were processed

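RNA of 4 mouse libraries, 1 per group, was made with the Takara SMART-Seq v4 kit, per the labels' protocols. The build mm10 and the tools STAR 2.7.3a, HTSeq 0.11.2 and DESeq2 are listed, without roles, in the submitters' processing notes; the strand setting was not stated. The authors deposited raw read counts per gene and, beside them, normalized counts, a signal that equals the raw counts divided by size factors of 0.766 and 1.31 (B16 residual and CTRL) and 0.770 and 1.30 (CT-26). The log2 fold and the unadjusted p-value are from the authors' deposited table and are used only as an alternative and in the closing section. The tables were normalized separately, so normalized values were compared within a model.

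Ratios used the normalized counts with a pseudocount of 1. A call by size needed a log2 ratio of at least 1 and 10 CPM in the higher library, and a library at 0 reads was set to 3 reads for bounds. Ratio intervals were exact and share intervals Wilson, both at 95%. Exon lengths and positions came from GENCODE M21, which matched 99.82% of identifiers. Of the members, Mpo alone overlaps another annotated gene, the antisense Gm11505, which had 0 reads. The fit used edgeR 4.0.16 with TMM factors and filterByExpr and an adjusted p limit of 0.05, with DESeq2 1.42.0 as alternative, in R 4.3.3; other steps used Python 3.11.15 with scipy 1.17.1. Scripts were tested on simulated data. The members and the 18 other gene lists were chosen with earlier results of these data known. Named genes were the members, all granule list genes and up to 4 genes of highest mean level per other list. The 8 genes outside the lists and most like the members were added, with predicted genes (Gm and Rik) left out. Some genes taken by these rules are left out of the text. 2 list symbols matched no gene. For a symbol with more than 1 entry, the reads and ratios are those of the entry with most reads. Alternatives were other scalings, pseudocounts, levels, denominators and fit settings.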

Additional observations from a re-analysis of the deposited data

Results flagged for a closer look

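Serpinb1a and 3 B cell genes, named by the rule for named genes, were higher in CTRL than in residual cells in B16 and lower in CT-26, and with 1 library per group this difference was not tested. Serpinb1a, the protease inhibitor, had a log2 ratio of 2.26 in B16 and -3.23 in CT-26. The B cell genes Cd79a (2.32 and -2.26), Cd79b (2.66 and -2.08) and Fcmr (3.30 and -1.91) did likewise. Other genes of the B cell list had the same pair of directions. No member changed direction between the models.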

How the results depend on the processing

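All 10 members had a negative log2 ratio in both models under every scaling, pseudocount and the authors' deposited fold. The B16 median of -5.43 was -4.80 when scaled to total reads, which moved the median of all genes by 0.84 in B16 and 0.19 in CT-26. By the fold in the authors' deposited table the median was -2.91 in B16 and -4.62 in CT-26, and 5 members rather than 8 passed the rule of size in B16. Of the 120 member ratios recomputed, 80 moved by less than their counting interval, 40 by more, and 0 changed sign.

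With Csf3r as denominator, 2 rather than 7 members were lower in B16 residual than in CT-26 residual, and 5 turned: Ngp to 0.79, Camp to 0.38, Lcn2 to 2.02, Mmp8 to 1.37 and Mmp9 to 0.53 on the log2 scale. Elane, not resolved relative to S100a8 and S100a9 reads, was at 1.84 with Csf3r. With the mature neutrophil list, Lcn2 turned to 0.91 and Mmp8 to 0.26. With total reads without haemoglobin they turned to 0.76 and 0.12, and with all other members Lcn2 turned to 0.14. The cause was not tested.

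In the fit over both models, where edgeR made 0 calls, DESeq2 called 10 members, 1536 genes lower and 317 higher, and edgeR without a filter on low counts called 9, 820 and 167. Leaving out 1 library, without the model term, gave 0 to 8 members, 0 to 527 genes lower and 0 to 24 higher. The 8, 527 and 24 came without the B16 CTRL library, and 3 members and 11 genes lower without the CT-26 CTRL library. A group left with 1 library was assumed to vary like the other. The fit was blocked by tumour model, and without that term edgeR also called 0 members. The model term set each CTRL library against the residual library of its own model, which made 2 such pairs. There were no replicate pairs within a model.

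Depth limits Elane and Mpo, whose 0 to 236 reads leave wide intervals. With 1 library per group, all intervals omit the variation between animals.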

Other observations

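Of 8 basophil and mast cell genes, 5 reached 10 CPM in B16 and 6 in CT-26, and all of these were lower in CTRL by the rule of size, beside 11.7% and 16.3% of all genes at that level. Mcpt8, a basophil protease, had 734 reads in the B16 residual, 0 in the B16 CTRL, 1336 in the CT-26 residual and 24 in the CT-26 CTRL library. Hdc, which makes histamine, had 15183, 1128, 28783 and 723.

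For genes with 0 CTRL reads in B16, the fold given by the authors' deposited table did not follow the reads. It was -0.92 for Ngp, Ltf and Camp with an unadjusted p of 0.556 in the authors' deposited table, although their residual reads were 8646, 2787 and 1806, and -3.15 for Elane with 30 reads. Among all B16 genes at 0 in CTRL, the median fold in the authors' deposited table was -4.36 over 89 genes with 50 to 99 residual reads, -0.92 over 62 genes with 100 or more but under 1000, and -0.92 over 7 genes with 1000 or more. The last 7, chosen after their values were seen, were Add2, Camp, Ctsf, Ltf, Ngp, Ppp1r3d and Rhov. In CT-26, the 82 genes with 0 CTRL reads and 100 or more but under 1000 residual reads had a median of -4.32 in the authors' deposited table. In B16, Ngp, Ltf and Camp had the smallest folds of the 10 members in the authors' deposited table.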
